A study of Caenorhabditis elegans with 55 samples.

Results

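The worm-specific Argonautes known as WAGO proteins are described here through the genes that encode them: *wago-1*, *ppw-1*, *ppw-2*, *wago-4*, *hrde-1*, *wago-10*, *sago-1*, *sago-2* and *nrde-3*, with *wago-11* also listed. The genes were taken by name from a list of 10 and looked up by WormBase gene ID. A total of 9 of the 10 matched an ID, and each of these had an antisense row in all 10 small RNA tables and a row in both mRNA tables. They stand among 20096 antisense coding features and 19390 genes with mRNA counts. *wago-11*, which RefSeq lists as a pseudogene, could not be matched to an ID in the files and no value is given for it.

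Argonaute proteins hold a small RNA and use it to find RNA of matching sequence. In *C. elegans*, RNA-dependent RNA polymerases copy a targeted transcript into short antisense 22G-RNAs, which WAGO proteins and the Argonaute CSR-1 bind. WAGO proteins mostly act in silencing, in the cytoplasm and germ granules or in the nucleus, whereas CSR-1 is best known for binding 22G-RNAs of germline-expressed genes. The mRNAs of Argonaute genes are themselves copied into 22G-RNAs, so a WAGO gene can be followed both as an mRNA and as a template of small RNA that another Argonaute carries.

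Whole L4 larvae kept at 20 C gave the small RNA, as an Argonaute immunoprecipitate (IP) and as the total small RNA of the lysate (input), with 2 libraries of each per strain. The CSR-1 IPs came from JMC101, *csr-1(tor67[gfp::3xflag::csr-1])*, which tags the protein in all its isoforms; from JMC151, *csr-1(tor160)*, tagged in exon 1, which belongs to the longer isoform CSR-1a; and from JMC164, *csr-1(tor67)* with *csr-1(mg660[G120\*])*, in which a stop codon in the exon of CSR-1a leaves CSR-1b as the tagged isoform. JMC161 holds *mgTi11[rpl-28::csr-1a exon1::gfp]*, driven by the promoter of the ribosomal protein gene *rpl-28* and not by that of *csr-1*, together with *unc-119(ed3)* and *csr-1(tm892)*. The IPs of GR3039, *csr-1(mg657[G91R])*, and of GR3035, *mgIs75[rpn-2::gfp]; mgTi14[pbs-5::mcherry]*, are labelled CSR-1a, though neither genotype places GFP on an Argonaute and GR3039 carries neither reporter in its label. Other Argonautes were ALG-3 in JMC205, *alg-3(tor141[gfp::3xflag::alg-3])*, ALG-4 in JMC207, *alg-4(tor143[gfp::3xflag::alg-4])*, WAGO-10 in JMC248, *wago-10(tor162[3xflag::wago-10])*, and WAGO-4 in JMC223, *wago-4(tor117[gfp::3xflag::wago-4])*. The beads of all IPs are labelled anti-GFP, although a CSR-1a antibody appears in the protocol too, and the WAGO-10 genotype lists no GFP. PolyA mRNA was sequenced from L4 worms of JMC164, the *csr-1a* mutant, and of wild-type N2, at 25 C and at 20 C, with 3 libraries per group. The titles of the mutant mRNA samples name the allele *csr-1a(tor159)*, whereas their genotype gives *tor67* with *mg660*, so the allele name is in doubt. The mutant also carries the tag and N2 does not, and each strain has its own table, so mutation, tag and table cannot be told apart. Each strain is a single line, nothing in the labels says that replicates were separate cultures, and p-values then measure the spread between these libraries, which may be technical.

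Small RNA values are in RPM, reads scaled to a fixed library total, with an estimated depth of 325376 to 30284492 reads per library, so that a single read was worth 0.033 to 3.07 RPM. mRNA values are in CPM, counts scaled in the same way from totals of 7457345 to 18774253 counts. The GFP sequence of the tag had 172 to 772 counts in each mutant mRNA library and 0 to 1 in each N2 library, whereas the count of *csr-1* as a whole gene does not check a stop codon in an exon of 1 isoform. Some libraries stood apart. Among the CSR-1a inputs of JMC151, replicate 1 had a higher antisense level than replicate 2 for each of the 9 genes (for *wago-4*, 269.5 against 91.5 RPM). For *sago-1* and *nrde-3* these inputs together held only 2 and 3 estimated reads, too few to show a difference. Input replicate 2 of WAGO-4 was the shallowest library. In the mRNA, the summed level of 12 germ cell markers was 219 CPM in replicate 3 of the mutant at 20 C, against 1209 and 1671 CPM in the other replicates, and it was 295, 335 and 1033 CPM in N2 at 20 C. Results that rest on the 20 C groups are therefore also given without single libraries. In whole worms, fewer germ cells and less RNA per germ cell cannot be told apart. RPM and CPM are not corrected for gene length, so levels are compared for the same gene across libraries and not between genes.

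Antisense small RNA of the WAGO genes fell into separate patterns across the IPs. Of the 9 genes, 5 encode germline Argonautes other than WAGO-10 (*wago-1*, *ppw-1*, *ppw-2*, *wago-4* and *hrde-1*). These 5 were called higher in the IPs of CSR-1, CSR-1b, WAGO-4 and the JMC161 transgene, whose genotype names exon 1 of CSR-1a. They were not called higher in the WAGO-10 IP or in the CSR-1a IPs of JMC151, GR3035 and GR3039. *wago-10* was called higher in 9 of the 10 IPs, the exception being WAGO-4. There its mean level was 4.96 RPM in the IPs and 4.86 RPM in the inputs, and the inputs held few reads. The inputs of JMC151, where *wago-10* was called, held few reads as well. *wago-10* had its largest log2 changes in the ALG-4, GR3035 and ALG-3 IPs. *sago-1* was higher in the IPs labelled CSR-1a and in that of JMC161. A change was called at a Benjamini-Hochberg adjusted p under 0.05 (limma on log2 of RPM + 1, adjusted over all features tested) and a log2 size of at least 1, and genes entered the test when 10 or more estimated reads were present in 2 or more libraries of the comparison.

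**Figure D1:**
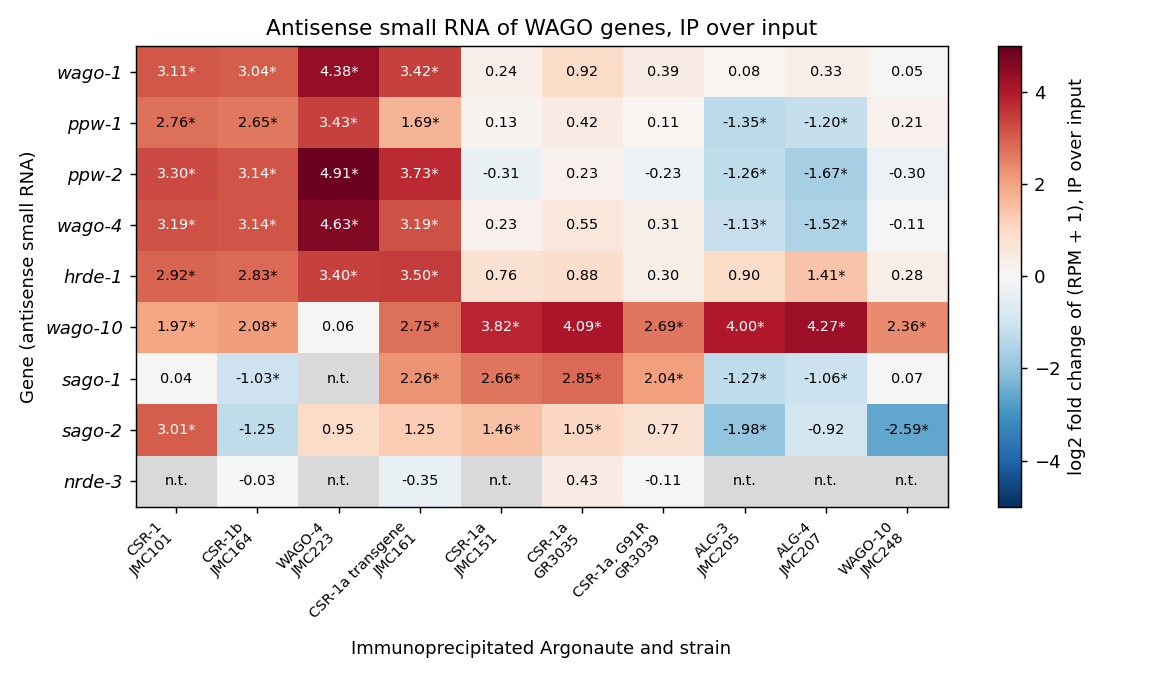
Log2 fold change of antisense small RNA, IP over input, for 9 WAGO genes (rows) in 10 IPs (columns, Argonaute and strain). Red is higher and blue is lower in the IP, an asterisk marks a called change, and n.t. (grey) marks a gene with too few reads to test. The upper 5 rows are red in the left 4 columns, while *wago-10* is red in every column except that of WAGO-4, where it is 0.06.

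*ppw-2* encodes an Argonaute of germline RNAi and transposon silencing. Its antisense RNA stood at 2880 and 3000 RPM in the CSR-1 IPs of JMC101, against 286 and 311 RPM in the inputs. In the CSR-1b IPs it was 2518 and 2507 RPM, against 244 and 329 RPM in the inputs. In the WAGO-4 IPs it was 1920 and 2027 RPM, against 68.3 and 61.5 RPM in the inputs, and in the JMC161 IPs 1611 and 2075 RPM, against 136 and 138 RPM. Every IP library of these 4 strains lay far above every input library. The log2 fold changes were 3.30 ± 0.21 (SE) for CSR-1, 3.14 ± 0.29 for CSR-1b, 4.91 ± 0.12 for WAGO-4 and 3.73 ± 0.17 for JMC161, with adjusted p of 3.54e-05, 5.78e-05, 6.85e-05 and 1.32e-06.

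*wago-4* encodes a germline Argonaute that takes part in the inheritance of RNAi. It showed 3379 and 4377 RPM of antisense RNA in the CSR-1 IPs, against 353 and 499 RPM in the inputs. In the CSR-1b IPs it showed 3056 and 3864 RPM, against 301 and 504 RPM in the inputs. The WAGO-4 protein carried antisense RNA of its own gene: 1703 and 1662 RPM in the IPs, against 69.5 and 64.5 RPM in the inputs, a log2 change of 4.63 ± 0.11 (SE). The JMC223 inputs, from the strain in which *wago-4* is tagged, held the lowest *wago-4* antisense levels of all 20 inputs, whose range was 64.5 to 503.8 RPM with a median of 185.5 RPM. These libraries also held the lowest input levels of *hrde-1* and *ppw-2*, at 87.7 and 61.5 RPM, so a low input level was shared with other genes. Relative to these 2 genes *wago-4* was lowest in these 2 inputs, but relative to *wago-1* it was not. The RPM ratio to *hrde-1* was 0.792 and 0.7, against 0.932 or more in the other inputs. To *ppw-2* it was 1.02 and 1.05, against 1.23 or more. These ratios carry no test.

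*hrde-1* encodes a nuclear Argonaute of the germline that is needed for inherited silencing. Its antisense RNA was 1964 and 1755 RPM in the CSR-1 IPs, against 237 and 252 RPM in the inputs, and 1970 and 1706 RPM in the CSR-1b IPs, against 231 and 288 RPM. In the WAGO-4 IPs it was 965 and 958 RPM, against 87.7 and 92.2 RPM in the inputs. The log2 changes were 2.92 ± 0.20, 2.83 ± 0.27 and 3.40 ± 0.11 (SE). *wago-1*, a germline Argonaute found at P granules, was 506 and 472 RPM in the CSR-1 IPs, against 53.4 and 58.2 RPM in the inputs, and 280 and 263 RPM in the WAGO-4 IPs, against 11.9 and 12.3 RPM. *ppw-1*, required for germline RNAi by feeding, was 574 and 597 RPM in the CSR-1 IPs, against 81.6 and 89.4 RPM in the inputs, and 394 and 341 RPM in the WAGO-4 IPs, against 32.3 and 33.8 RPM. For *ppw-1* the JMC161 transgene gave the smallest of the 4 increases, at 152 and 148 RPM in the IPs against 42.1 and 49.9 RPM in the inputs, a log2 change of 1.69 ± 0.15.

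**Figure D2:**
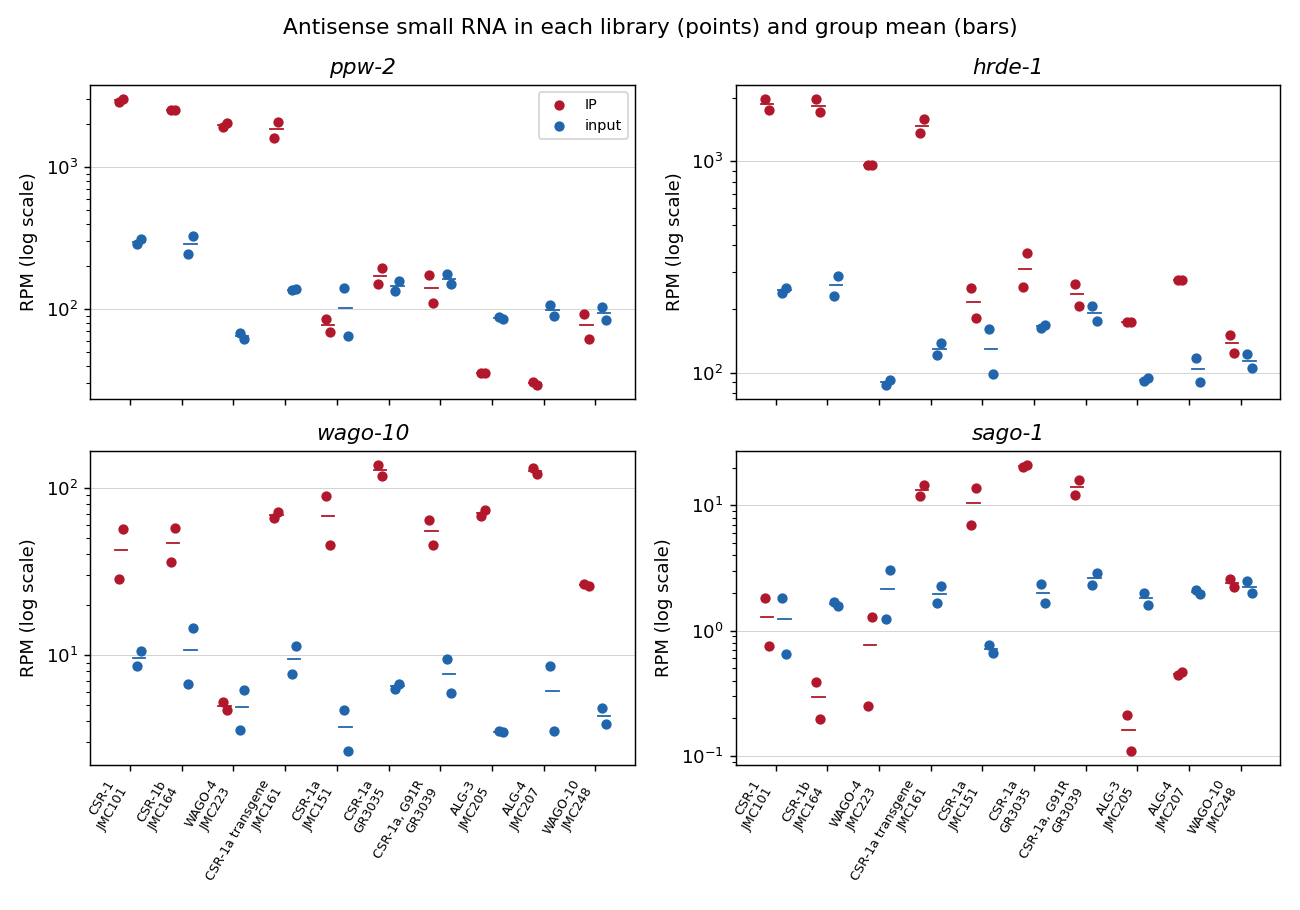
Antisense small RNA (RPM, log axis) of *ppw-2*, *hrde-1*, *wago-10* and *sago-1* in each library, with IPs in red to the left of inputs in blue for each strain. Points are the 2 libraries and short lines their mean. *ppw-2* and *hrde-1* separate widely in the left 4 strains, whereas *wago-10* separates in all strains except JMC223, and *sago-1* upward in JMC161, JMC151, GR3035 and GR3039 and downward in JMC164, JMC205 and JMC207.

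These counts need the background of all antisense features. The IP of CSR-1 had 7 of 8 tested WAGO genes called higher, where 55% of all antisense coding features tested were. Of the 7, *sago-2* reached the read minimum through the IPs alone, which favoured a call as higher. The IP of CSR-1b had 6 of 9, against 51.1%. For WAGO-4 it was 5 of 7, against 68.2%, and for JMC161 7 of 9, against 56.1%. The genes called lower numbered 0 for CSR-1 (19.2% of features), 1 for CSR-1b (19.4%), 0 for WAGO-4 (5.19%) and 0 for JMC161 (13.4%). The median log2 change of the WAGO genes tested was 2.97 in the CSR-1 IP, 2.65 for CSR-1b, 3.43 for WAGO-4 and 2.75 for JMC161, beside 1.45, 1.12, 3.19 and 1.42 over all antisense coding features tested. Of 19 genes that make 22G-RNAs, such as the polymerase genes *ego-1* and *rrf-1*, the helicase gene *drh-3* and the *mutator* genes, 17 were called higher for CSR-1, 17 for CSR-1b, 18 for WAGO-4 and 17 for JMC161. Of other Argonaute genes, 6 of 11 tested were higher for CSR-1, 7 of 11 for CSR-1b, 5 of 8 for WAGO-4 and 8 of 11 for JMC161. *csr-1*, the piRNA Argonaute gene *prg-1*, *rde-1*, *alg-5* and *ergo-1* were higher in all 4, whereas *alg-3* and *alg-4* were lower in the WAGO-4 IP.

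In the CSR-1a IPs of JMC151, GR3035 and GR3039, unlike that of the JMC161 transgene, the same 5 germline genes lay near their inputs. *ppw-2* stood at 85.3 and 68.5 RPM in the CSR-1a IPs of JMC151, against 139.8 and 64.8 RPM in the inputs, and the groups overlapped. It stood at 149 and 194 RPM in the GR3035 IPs, against 135 and 157 RPM in the inputs. *hrde-1* was 251.5 and 180.5 RPM in the JMC151 IPs, against 160.5 and 98.2 RPM in the inputs. Its log2 change of 0.76 ± 0.59 (SE) did not pass the test (adjusted p = 0.289). In GR3035 it was 253 and 367 RPM in the IPs, against 162 and 169 RPM in the inputs. There *wago-1* (log2 0.92, adjusted p = 0.00161), *hrde-1* (0.88, 0.0105) and *ppw-1* (0.42, 0.0324) passed the test of a difference but not the limit on its size. GR3039, which carries the G91R change in *csr-1*, gave log2 changes of -0.23 to 0.39 for the 5 genes, none of them past the test.

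The enrichment itself, IP over input, was lower for CSR-1a (JMC151) than for CSR-1b (JMC164) for each of the 5 genes, by the test of the difference. The log2 difference was -3.46 ± 0.62 (SE) for *ppw-2*, -2.91 ± 0.77 for *wago-4*, -2.80 ± 0.58 for *wago-1*, -2.52 ± 0.59 for *ppw-1* and -2.07 ± 0.59 for *hrde-1*, with adjusted p of 0.00444 to 0.0287. *sago-1* differed the other way, by 3.69 ± 0.62 (adjusted p = 0.00328), as did *sago-2*, by 2.71 ± 0.77 (adjusted p = 0.0292). The *sago-1* value rests on few reads. In JMC151 only the IPs reached the read minimum, which favoured a higher value, and the inputs together held 2 estimated reads. The JMC164 IPs together held 12.45. For *wago-10* the difference was 1.74 (95% interval 0.24 to 3.25, adjusted p = 0.0908) and for *nrde-3* 1.75 (adjusted p = 0.0809). With IP and input of the same number paired by a replicate block, both passed (adjusted p = 0.0185 and 0.042). Of all antisense coding features tested, 10.7% were higher and 23.5% lower in this comparison. The 22G-RNA synthesis genes had 14 of 19 lower and 1 higher. Without IP replicate 2 of JMC164 the number of WAGO genes called was 2 of 9, and without input replicate 2 it was 3. It was 4 without IP replicate 2 of JMC151.

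JMC161, whose IP is titled CSR-1 in the labels and listed as CSR-1a in its deposited table, was set against JMC151, labelled CSR-1a in both. The enrichment was higher in JMC161 than in JMC151 by 4.04 ± 0.56 (log2, SE) for *ppw-2*, 3.18 ± 0.56 for *wago-1*, 2.96 ± 0.66 for *wago-4* and 2.74 ± 0.50 for *hrde-1*, with adjusted p of 0.00197 to 0.00868. Background calls were 31.8% higher and 9.34% lower. *ppw-1*, at 1.55 (95% interval 0.30 to 2.81), did not pass (adjusted p = 0.062), but did with the replicate block (adjusted p = 0.0198). *sago-1* did not differ by the test, with an interval of -1.75 to 0.93. *nrde-3* was lower by 2.06 (adjusted p = 0.0381), from levels of 1.03 and 0.75 RPM in the JMC161 IPs and 8.40 and 3.84 RPM in the JMC151 IPs. In JMC151 on its own *nrde-3* had too few reads to test, and the call on the difference was lost in 8 of 13 alternatives, with adjusted p of up to 0.161. Both genotypes place the tag in exon 1 of CSR-1a. The promoter, the transgene and the *csr-1(tm892)* background differ together between these strains and cannot be told apart.

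WAGO-4 and CSR-1b were set against each other as Argonautes whose IPs shared high WAGO gene levels. Enrichment was higher for WAGO-4 for *ppw-2*, by 1.76 ± 0.26 (log2, SE), for *wago-4*, by 1.49 ± 0.35, and for *wago-1*, by 1.34 ± 0.29 (adjusted p of 0.00227, 0.0172 and 0.0138). These were 3 of the 9 WAGO genes tested, beside 25.3% of all antisense coding features tested, whose median difference was 0.92. The 3 genes were picked by their call, so their place above that median carries no weight. *ppw-1* (log2 3.43 for WAGO-4 and 2.65 for CSR-1b) and *hrde-1* (3.40 and 2.83) were not called, and their differences lay under it. None of the WAGO genes was called lower, beside 4.76% of features. *wago-10* had a difference of -2.02 (95% interval -3.43 to -0.60, adjusted p = 0.0521), which passed with the replicate block (adjusted p = 0.0397). Without either IP library of WAGO-4 the count was 1, and without its input replicate 1 it was 5.

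*wago-10* encodes an Argonaute found in germ cells that make sperm. Its antisense RNA in the 20 inputs was 2.67 to 14.5 RPM and had a median of 6.22 RPM. In the ALG-4 IPs it stood at 130 and 121 RPM, against 8.62 and 3.49 RPM in the inputs. In the ALG-3 IPs it stood at 68.0 and 73.3 RPM, against 3.51 and 3.44 RPM. ALG-3 and ALG-4 are Argonautes of the male germline that bind 26G-RNAs. The log2 changes were 4.27 ± 0.35 (SE) for ALG-4 and 4.00 ± 0.10 for ALG-3. The enrichment did not differ between ALG-3 and ALG-4 by the test for any of the 9 genes (limma, 1 at an unadjusted p under 0.05), and for *wago-10* the 95% interval of the difference was -1.19 to 0.66. Background calls in that comparison were 0% higher and 0.0287% lower.

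CSR-1a IPs held *wago-10* at similar levels. It was 89.2 and 45.4 RPM in JMC151, against 4.69 and 2.67 RPM in the inputs, and 136 and 118 RPM in GR3035, against 6.29 and 6.66 RPM. The GR3039 IPs had 64.0 and 45.5 RPM, against 9.48 and 5.91 RPM in the inputs. *wago-10* passed the read minimum through the IP libraries alone in JMC151. The log2 changes were 3.82 ± 0.57 (SE), 4.09 ± 0.15 and 2.69 ± 0.27. Enrichment in GR3039 was lower than in GR3035 by 1.40 on the log2 scale (95% interval -2.14 to -0.66), which missed the threshold at an adjusted p of 0.0558. With the replicate block it passed (adjusted p = 0.0249), and over 13 alternatives the adjusted p ran from 0.0195 to 0.183. Across GR3039 and GR3035, 0 of 9 WAGO genes were called (limma, 2 at an unadjusted p under 0.05), and 0.152% of antisense coding features were higher and 1.61% lower.

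The WAGO-10 IPs had 26.6 and 25.7 RPM of antisense RNA of *wago-10* itself, against 4.81 and 3.84 RPM in the inputs. This was the one WAGO gene called higher there, of 8 tested, at a log2 change of 2.36 ± 0.25 (SE, adjusted p = 0.000252), where 10.4% of antisense coding features were. The other Argonaute genes called higher with WAGO-10 were *alg-3* and *alg-4*, and 0 of the 19 synthesis genes were called (limma). *wago-4* stood at 166.5 and 112.0 RPM in the IPs, against 156.7 and 139.5 RPM in the inputs. In the WAGO-4 IPs, in contrast, *wago-10* stood at 5.24 and 4.69 RPM, against 3.57 and 6.15 RPM in the inputs.

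Set directly against WAGO-4, the enrichment in the WAGO-10 IPs differed by 2.30 ± 0.51 (log2, SE, adjusted p = 0.00386) for *wago-10*. The difference was -5.21 ± 0.31 for *ppw-2*, -4.74 ± 0.28 for *wago-4*, -4.33 ± 0.35 for *wago-1*, -3.22 ± 0.25 for *ppw-1* and -3.13 ± 0.24 for *hrde-1*, with adjusted p of 5.60e-06 to 1.36e-05. In the same comparison 11.6% of antisense coding features were higher and 59.9% lower, with a median difference of -2.43, so most features moved with the 5 genes and few with *wago-10*.

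In the IPs of CSR-1, CSR-1b and JMC161 *wago-10* lay above every input library as well. The levels were 28.5 and 56.5 RPM in the CSR-1 IPs, against 8.57 and 10.5 RPM in the inputs, and 35.7 and 57.3 RPM in the CSR-1b IPs, against 6.70 and 14.5 RPM. JMC161 had 65.8 and 71.2 RPM in the IPs, against 7.66 and 11.3 RPM. The log2 changes were 1.97 ± 0.35 (SE), 2.08 ± 0.38 and 2.75 ± 0.21. The JMC164 inputs, from worms with the stop codon in CSR-1a, overlapped the JMC101 inputs for *wago-10*, and these strains share the same tag.

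Over the 10 IPs the log2 changes of *wago-10* ran against those of the 5 germline genes, with Pearson's r of -0.848 (*ppw-1*) to -0.611 (*hrde-1*). Among the 5, r ranged from 0.805 (*ppw-1* with *hrde-1*) to 0.995 (*ppw-2* with *wago-4*). The 10 points share their scaling to library totals, and 6 of them are CSR-1 IPs, so these values only describe. The single feature most like *wago-10* over the 10 IPs, among 5211 antisense coding features, was *Y66D12A.11* (r = 0.989). For the others it was *unc-85* with *wago-4* (0.999), *tomm-70* with *wago-1* (0.999), *Y17G7B.20* with *ppw-2* (0.999), *rnf-126* with *hrde-1* (0.997), *cyp-31A2* with *ppw-1* (0.995) and *his-1* with *sago-2* (0.818). No value was computed for *sago-1* and *nrde-3*, which had too few reads.

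In the ALG-3 and ALG-4 IPs the germline genes parted from each other. *wago-4* stood at 62.5 and 58.0 RPM in the ALG-3 IPs, against 134.5 and 132.1 RPM in the inputs. In the ALG-4 IPs it stood at 56.3 and 47.6 RPM, against 163.7 and 139.0 RPM. *ppw-2* was 30.9 and 29.4 RPM in the ALG-4 IPs, against 106.9 and 89.7 RPM in the inputs, and *ppw-1* was 22.57 and 17.03 RPM, against 51.8 and 41.3 RPM. Every IP library lay under every input library for these genes. *hrde-1* did the opposite, at 275 and 275 RPM in the ALG-4 IPs against 118 and 90.1 RPM in the inputs, a log2 change of 1.41 ± 0.21 (SE, adjusted p = 0.000639). In the ALG-3 IPs it was 173 and 174 RPM, against 91.04 and 93.77 RPM, a log2 change of 0.90 that passed the test (adjusted p = 2.13e-06) but not the size limit. *wago-1* stayed close to input, with 0.08 and 0.33 on the log2 scale for ALG-3 and ALG-4.

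The ALG-3 IP had 5 of 8 tested WAGO genes called lower, beside 31% of all antisense coding features, and 1 higher, beside 28.9%. The ALG-4 IP had 4 of 8 lower, beside 33.6%, and 2 higher, beside 33.2%. In both IPs *sago-1*, counted among those lower, reached the read minimum through the inputs alone, which favoured a call as lower. Scaling by TMM factors in place of library totals raised log2 changes by 0.55 for ALG-3 and 0.50 for ALG-4, relative to which the decreases were smaller. The ALG-3 decreases of *ppw-1*, *ppw-2* and *wago-4* were then -0.82, -0.72 and -0.59, and the ALG-4 decreases of *ppw-1* and *sago-1* were -0.71 and -0.81, all under the size limit. *hrde-1* was then called higher for ALG-3 at 1.45. The same scaling lowered log2 changes by 1.43 for WAGO-4, 0.65 for JMC151 and 0.64 for JMC161, and the calls on the 5 germline genes in WAGO-4 and JMC161 held under it. For CSR-1 and CSR-1b the shift was -0.17 and -0.14, for GR3035 -0.29, for GR3039 -0.07 and for WAGO-10 0.30.

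*sago-1* and *sago-2* encode Argonautes of the secondary step of RNAi triggered by foreign double-stranded RNA. *sago-1* antisense RNA was 0.645 to 3.07 RPM over the 20 inputs. It rose to 20.1 and 20.9 RPM in the GR3035 IPs, against 2.36 and 1.65 RPM in the inputs, and to 12.04 and 15.93 RPM in the GR3039 IPs, against 2.32 and 2.90 RPM. The JMC161 IPs had 11.9 and 14.5 RPM, against 1.66 and 2.29 RPM in the inputs, and the JMC151 IPs 6.99 and 13.8 RPM, against 0.768 and 0.668 RPM. Log2 changes were 2.85 ± 0.20 (SE), 2.04 ± 0.31, 2.26 ± 0.27 and 2.66 ± 0.57. In JMC151 *sago-1* reached the read minimum in the IP libraries alone, and its inputs together held 2 estimated reads. No other IP had *sago-1* called higher.

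*sago-1* was lower than input in the CSR-1b IPs, at 0.392 and 0.199 RPM against 1.70 and 1.58 RPM in the inputs, a log2 change of -1.03 (adjusted p = 0.0225) that became -0.92 without IP replicate 2 and lost its call. In the ALG-3 IPs it was 0.214 and 0.110 RPM, against 2.001 and 1.614 RPM, and in the ALG-4 IPs 0.444 and 0.466 RPM, against 2.12 and 1.96 RPM. For ALG-3 and ALG-4 *sago-1* entered the test through the inputs alone. At these depths the levels come from few reads, and the added 1 RPM compresses the log2 changes. The JMC101 IPs, in which all isoforms are tagged, had 1.81 and 0.748 RPM, against 1.82 and 0.645 RPM in the inputs.

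*sago-2* varied widely between replicates. It was 29.5 and 40.2 RPM in the JMC151 IPs, against 18.2 and 7.68 RPM in the inputs, and 26.3 and 46.6 RPM in the GR3035 IPs, against 14.6 and 18.4 RPM. The calls there (log2 1.46 and 1.05) were lost under TMM scaling, at 0.85 and 0.77. In the CSR-1 IPs it was 11.2 and 5.50 RPM, against 0 and 0.215 RPM in the inputs, where it passed the read minimum through the IPs alone (log2 3.01 ± 0.40). In the WAGO-10 IPs it was 4.65 and 0 RPM, against 10.7 and 16.4 RPM in the inputs, a log2 change of -2.59 (adjusted p = 0.0156), beside 9.06% of antisense coding features called lower. With the replicate block *sago-2* was also called in JMC161 (log2 1.25, adjusted p = 0.00416) and, as lower, in CSR-1b (-1.25, adjusted p = 0.000271), where the fit without it gave 0.217 and 0.0706. The GR3039 IPs held 36.6 and 3.08 RPM and the WAGO-4 IPs 1.09 and 25.2 RPM, a spread of over an order of magnitude between replicates.

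*nrde-3*, a nuclear Argonaute of somatic cells, was tested in 4 of the 10 IPs and called in 0 of them (limma, 0 at an unadjusted p under 0.05). Its antisense RNA ranged from 0 to 8.40 RPM in the IPs with a median of 1.05 RPM, and from 0 to 2.87 RPM in the inputs with a median of 1.12 RPM. The highest values were the 8.40 and 3.84 RPM of the JMC151 IPs, against 1.54 and 0.668 RPM in the inputs, where only 1 of the 4 libraries reached the read minimum.

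For the CSR-1a IPs other than that of the JMC161 transgene, 3 of 8 tested WAGO genes were called higher in JMC151, beside 42.9% of antisense coding features. In GR3035 it was 3 of 9, beside 33.2%. In GR3039 it was 2 of 9, beside 16.6%. None was called lower, where 15.4%, 11.6% and 6.86% of features were. The genes were *wago-10* and *sago-1* in all 3 strains, with *sago-2* in JMC151 and GR3035. In JMC151 *wago-10* and *sago-1* reached the read minimum through the IPs alone, which favoured a call as higher. The *sago-2* call was lost in 5 of 9 alternatives in JMC151 and in GR3035. Among the 22G-RNA synthesis genes 0 of 16 were called higher in JMC151, 2 of 19 in GR3035 and 0 of 19 in GR3039, and of other Argonaute genes *alg-3*, *alg-4* and *alg-1* were higher in all 3. With either JMC151 IP library left out, *wago-10* and *sago-1* no longer reached the read minimum in 2 libraries, and 0 of the 6 WAGO genes still tested were called (0 at an unadjusted p under 0.05). Between the inputs of GR3039 and GR3035, *sago-2* was the 1 gene of 9 called, at 5.06 and 7.77 RPM in GR3039 and 14.6 and 18.4 RPM in GR3035, a log2 difference of -1.33 (adjusted p = 0.013) with TMM factors. In that comparison 8.29% of antisense coding features were lower and 2% higher.

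Sense reads of the WAGO genes were few. The highest sense level in any library was 22.6 RPM for *wago-1*, and the medians over 20 IPs were 0.353 to 3.94 RPM for the 8 genes with a sense row. *sago-2* had none. Sense reads of *hrde-1* stood at 10.9 and 11.4 RPM in the ALG-3 IPs, against 1.38 and 1.75 RPM in the inputs, and at 15.3 and 15.7 RPM in the ALG-4 IPs, against 2.44 and 1.94 RPM. In the ALG-3 IPs sense *wago-1* was 4.70 and 5.39 RPM and sense *wago-10* 4.99 and 4.84 RPM, against 1.49 and 1.36 RPM and 0.957 and 1.96 RPM in the inputs. Sense *ppw-1* was 0.367 and 0.389 RPM in the CSR-1b IPs, against 2.62 and 2.84 RPM in the inputs. Every IP library lay outside the range of its inputs in these examples, which were chosen after their values were seen and carry no test.

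The mRNA libraries asked how the loss of CSR-1a changed transcript levels at each temperature. At 25 C, 4 of the 9 WAGO genes (*wago-1*, *wago-4*, *ppw-1* and *wago-10*) had lower CPM in every mutant library than in any N2 library, where 27.8% of all 14800 genes tested did. *sago-1* was higher in every mutant library, beside 29.7% of genes. The edgeR quasi-likelihood test over all 12 libraries called *ppw-1* lower and *sago-1* higher, and 11.2% of all genes lower and 17.4% higher at an adjusted p under 0.05.

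**Figure D3:**
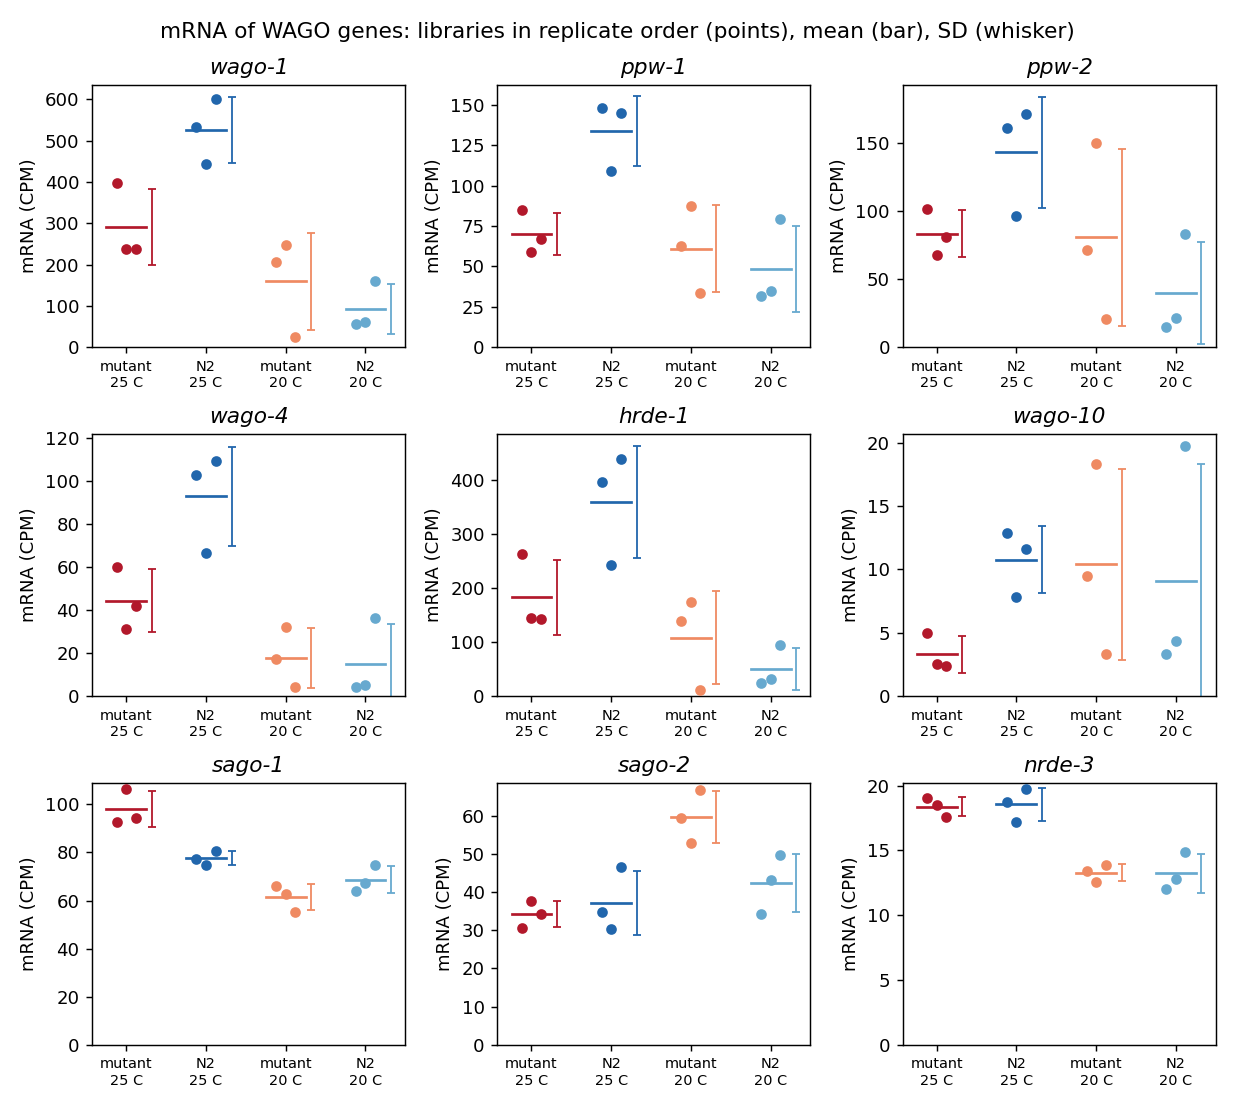
mRNA level (CPM, linear axis from 0) of 9 WAGO genes in the *csr-1a* mutant and N2, at 25 C and 20 C. Points are libraries in replicate order, bars are means and whiskers SD (n = 3). For *wago-1*, *ppw-1*, *wago-4* and *wago-10* the mutant libraries at 25 C lie under those of N2, whereas the groups at 20 C overlap and spread widely for the genes in the upper 2 rows.

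*ppw-1* mRNA was 84.6, 58.7 and 67.1 CPM in the mutant at 25 C, against 148, 109 and 145 CPM in N2 at 25 C, a log2 change of -0.92 ± 0.32 (SE, adjusted p = 0.0483). *sago-1* was 92.8, 106.5 and 94.5 CPM in the mutant, against 77.4, 74.7 and 80.6 CPM in N2, a log2 change of 0.36 ± 0.12 (adjusted p = 0.0446). Both calls lie close to the threshold. *sago-1* lost it in 6 of 6 fits without a library of these groups, with adjusted p of 0.0509 to 0.183, and *ppw-1* in 5 of 6, with N2 replicate 2 as the exception.

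*wago-10* was 4.97, 2.54 and 2.37 CPM in the mutant at 25 C, against 12.9, 7.79 and 11.6 CPM in N2, a log2 change of -1.69 ± 0.65 (adjusted p = 0.0684) that DESeq2 called (adjusted p = 0.0222, range over 11 alternatives 0.000514 to 0.19). *wago-4* was 60.05, 30.93 and 42.06 CPM in the mutant, against 103, 66.6 and 109 CPM in N2 (log2 -1.06, adjusted p = 0.255). *wago-1* was 397, 238 and 237 CPM in the mutant, against 533, 442 and 602 CPM in N2 (log2 -0.84, adjusted p = 0.272). For *hrde-1* and *ppw-2* the groups overlapped, at 263, 144 and 142 CPM in the mutant against 396, 242 and 438 CPM in N2, and at 101.5, 67.7 and 81.3 CPM against 161, 96.7 and 172 CPM. When the 25 C libraries were fitted alone, *wago-10*, *wago-4*, *wago-1*, *hrde-1* and *ppw-2* passed as well as *ppw-1*, with adjusted p of 0.000514, 0.00265, 0.00389, 0.00768 and 0.0101 for the first 5, and *sago-1* did not (0.051).

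Germ cell markers moved with these genes. All 12 markers of the list, among them *glh-1*, *pgl-1* and *gld-1*, were found, with 0 of them at 0 in any library, and their sum was 915 to 1504 CPM in the mutant at 25 C and 1837 to 2805 CPM in N2 at 25 C. Per 1000 CPM of the marker sum, a ratio chosen after the values were seen, *wago-4* was 33.8 to 43.1 CPM in the mutant and 36.3 to 39.6 CPM in N2, and *ppw-1* was 56.3 to 68.8 CPM in the mutant and 51.6 to 59.4 CPM in N2, so both overlapped. *wago-1* was 243 to 264 CPM per 1000 in the mutant and 205 to 241 CPM in N2. *wago-10* remained lower in the mutant relative to this sum, at 2.43 to 3.30 CPM per 1000 and 4.15 to 4.96 CPM in N2. Relative to the summed level of 38 sperm markers, however, the *wago-10* groups overlapped. Mutant replicate 1 had 4.97 CPM of *wago-10* beside 1929 CPM of sperm markers, and N2 replicate 2 had 7.79 CPM beside 3070 CPM.

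Other marker lists also differed at 25 C. The sum of 38 sperm markers (at most 3 of them at 0) was 1478 to 1951 CPM in the mutant and 3064 to 3237 CPM in N2, and that of 12 oocyte markers (0 at 0) 1807 to 2937 CPM in the mutant and 3234 to 5025 CPM in N2. Collagen genes (156, at most 13 at 0) summed to 43310 to 49930 CPM in the mutant and 65003 to 68677 CPM in N2. The 10 intestine markers gave 21785 to 28502 CPM in the mutant and 21806 to 30229 CPM in N2, and the 6 muscle markers 5220 to 6552 CPM and 4943 to 5349 CPM, with 0 at 0 in both lists. The part of any of these lists in the WAGO gene values was not tested.

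**Figure D4:**
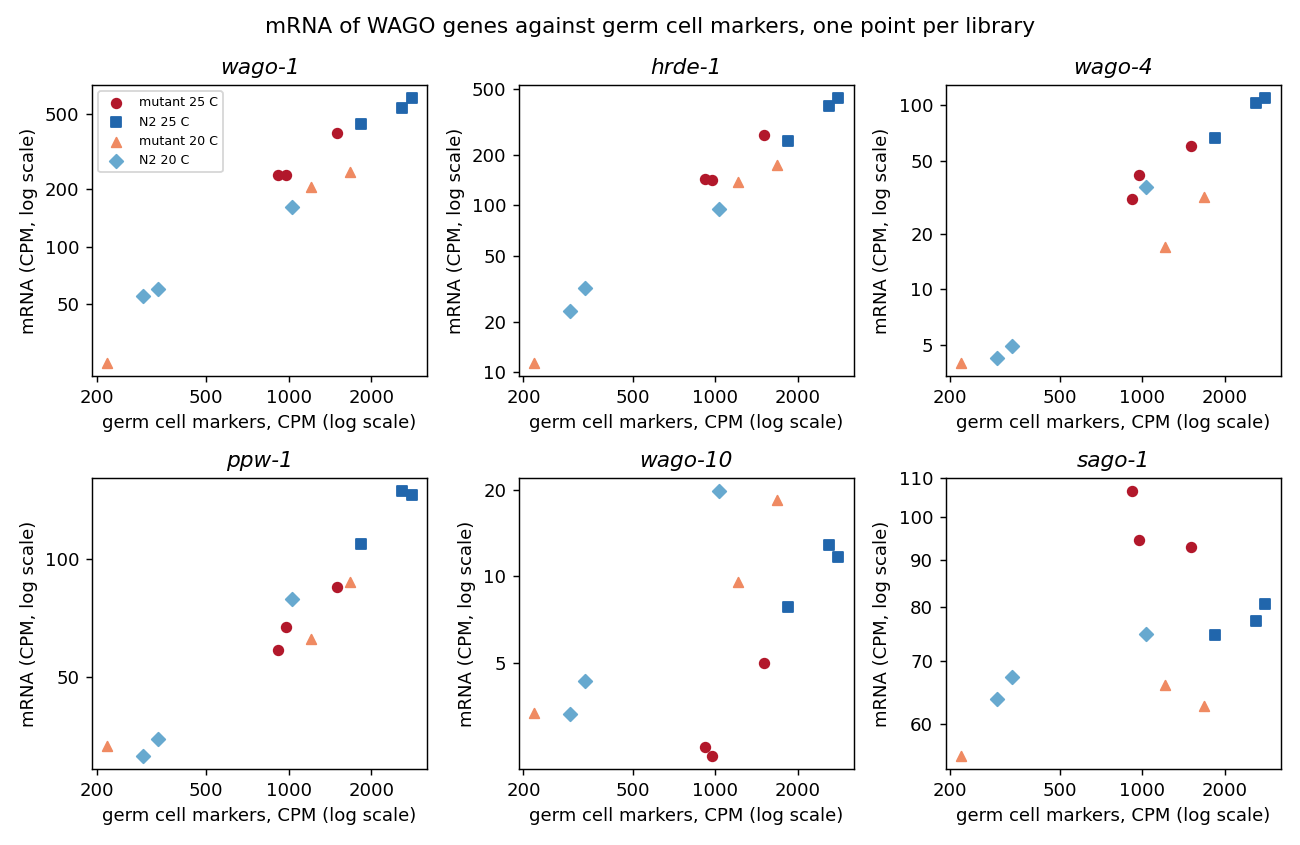
mRNA level (CPM, log axis) of 6 WAGO genes against the summed CPM of 12 germ cell markers (log axis), with a point for each of the 12 libraries. *wago-1*, *hrde-1*, *wago-4* and *ppw-1* run along the marker sum. Relative to that sum, the 25 C points of *wago-1*, *hrde-1* and *wago-4* lie above those of 20 C in each strain, and those of *wago-10* lie under them. *sago-1* shows no such run.

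At 20 C the test called 0 of the 9 WAGO genes between mutant and N2 (edgeR, and 0 by DESeq2; 1 at an unadjusted p under 0.05 by each), where 1.95% of all genes were higher and 5.16% lower. The libraries split within the groups. *hrde-1* was 138, 174 and 11.4 CPM in the mutant at 20 C, against 23.30, 32.01 and 94.47 CPM in N2. *wago-1* was 205, 248 and 24.5 CPM in the mutant, against 55.0, 59.9 and 161 CPM in N2, and *ppw-2* was 71.5, 149.8 and 20.6 CPM, against 14.8, 21.5 and 83.2 CPM. For each of these the mutant's replicate 3 and N2's replicates 1 and 2 were low, the libraries with the lowest germ cell marker sums.

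Without mutant replicate 3, *hrde-1* (log2 1.69, adjusted p = 0.00733), *wago-1* (1.34, 0.007) and *ppw-2* (1.55, 0.0264) were called higher in the mutant at 20 C. Over all 11 alternatives their adjusted p ran from 0.00733 to 0.782, from 0.007 to 0.862 and from 0.0264 to 0.884. In that fit 3 of the 9 WAGO genes were called, and the 2 remaining mutant libraries had marker sums of 1209 and 1671 CPM, above all of N2 at 20 C. Without N2 replicate 3, the high one of its group, 0 of the 9 were called and 6 passed an unadjusted p under 0.05, with log2 estimates such as 2.08 for *ppw-2* (adjusted p = 0.0742), 1.90 for *wago-4* (0.11) and 1.87 for *hrde-1* (0.186). *sago-2* was higher in every mutant library, beside 6.59% of genes, at 59.3, 52.9 and 66.7 CPM in the mutant and 34.3, 43.2 and 49.6 CPM in N2 (log2 0.55, adjusted p = 0.147). *nrde-3* was 13.4, 12.6 and 13.9 CPM in the mutant and 11.98, 12.8 and 14.9 CPM in N2.

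Between temperatures, N2 had 5 of 9 WAGO genes called higher at 25 C than at 20 C, beside 28.3% of all genes higher and 30.4% lower. The log2 changes were 2.66 ± 0.72 (SE) for *hrde-1*, 2.46 ± 0.73 for *wago-4*, 2.31 ± 0.60 for *wago-1*, 1.67 ± 0.62 for *ppw-2* and 1.26 ± 0.32 for *ppw-1*, with adjusted p of 0.00722, 0.0122, 0.00554, 0.0355 and 0.00514. Every N2 library at 25 C lay above every N2 library at 20 C for these 5 and for *nrde-3*, beside 40.6% of all genes, and below for 0 of the 9, beside 28.8%. *wago-4* was 103, 66.6 and 109 CPM at 25 C, against 4.24, 4.91 and 36.1 CPM at 20 C. Without N2 replicate 3 at 20 C the log2 changes were 4.00 for *wago-4*, 3.36 for *hrde-1*, 2.85 for *wago-1*, 2.64 for *ppw-2* and 1.67 for *ppw-1*, and without replicate 1 they were 2.06, 2.35, 2.09, 1.31 and 1.07. The call on *ppw-2* was lost without N2 replicate 1 or 2 at 20 C and without replicate 1 or 3 at 25 C. Among the germ cell markers 11 of 12 rose, and among the oocyte markers 12 of 12, which summed to 3234 to 5025 CPM at 25 C and 151 to 457 CPM at 20 C. The worms of both temperatures are labelled L4, and the part of these markers in the WAGO gene values was not tested. The 22G-RNA synthesis genes had 15 of 19 higher, and other Argonaute genes 5 of 10 higher and 1 lower.

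In the mutant, the same contrast called 3 WAGO genes. *sago-1* was higher at 25 C (92.8, 106.5 and 94.5 CPM, against 66.0, 62.7 and 55.4 CPM at 20 C, log2 0.42, adjusted p = 0.0134), *sago-2* was lower (30.7, 37.5 and 34.4 CPM, against 59.3, 52.9 and 66.7 CPM, log2 -1.08, adjusted p = 0.00122), and *wago-10* was lower (4.97, 2.54 and 2.37 CPM, against 9.52, 18.4 and 3.33 CPM, log2 -1.89, adjusted p = 0.0283). For *sago-1* and *sago-2* the groups did not overlap (beside 40.5% of all genes higher and 17.4% lower), and for *wago-10* they did. *nrde-3*, which was not called, did not overlap either, at 19.0, 18.5 and 17.6 CPM at 25 C against 13.4, 12.6 and 13.9 CPM at 20 C. All genes gave 26.8% higher and 24.4% lower at the adjusted threshold. Without mutant replicate 3 at 20 C the 3 genes were called too, with *wago-10* at -2.35 (adjusted p = 0.00262). Without mutant replicate 2 at 20 C, *wago-10* was at -1.19 (adjusted p = 0.164), and it also lost its call without replicate 2 or 3 at 25 C. Synthesis genes had 9 of 19 higher, and sperm markers 25 of 33 tested lower.

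Set against the germ cell marker sum, *wago-10* and *wago-4* went opposite ways with temperature in both strains. In the mutant, *wago-10* was 2.43 to 3.30 CPM per 1000 at 25 C and 7.88 to 15.2 CPM at 20 C. In N2 it was 4.15 to 4.96 CPM per 1000 at 25 C and 11.2 to 19.1 CPM at 20 C. *wago-4* was 33.8 to 43.1 CPM per 1000 in the mutant at 25 C and 14.1 to 19.1 CPM at 20 C. In N2 it was 36.3 to 39.6 CPM per 1000 at 25 C, and 14.4, 14.7 and 35.0 CPM at 20 C. *hrde-1* was 145 to 175 CPM per 1000 in the mutant at 25 C and 52.2 to 114 CPM at 20 C, and 132 to 156 CPM in N2 at 25 C and 78.9 to 95.6 CPM at 20 C. The groups did not overlap for these 3 genes in either strain. Relative to the sperm marker sum, however, *wago-10* at 25 C and 20 C overlapped in both strains. In the mutant, replicate 1 had 4.97 CPM beside 1929 CPM of sperm markers at 25 C, and 9.52 beside 5386 CPM at 20 C. N2 had 12.9 beside 3237 CPM in replicate 1 at 25 C. At 20 C it had 3.30 beside 3029 CPM in replicate 1 and 19.7 beside 2864 CPM in replicate 3. None of these ratios carries a test.

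The interaction asked whether the effect of the mutation differed between temperatures. It called 0 of the 9 WAGO genes with edgeR (3 at an unadjusted p under 0.05), 2 with DESeq2 and 1 with edgeR's RLE factors, where 13.5% of all genes were higher and 9.26% lower. The estimates, as the mutant's change at 25 C minus that at 20 C, were -2.08 ± 0.97 (log2, SE) for *hrde-1*, -1.95 ± 0.89 for *wago-10*, -1.83 ± 0.86 for *ppw-2*, -1.63 ± 0.81 for *wago-1*, -1.37 ± 0.99 for *wago-4*, -1.29 ± 0.45 for *ppw-1* and 0.49 ± 0.17 for *sago-1*. Without mutant replicate 3 at 20 C 6 genes were called, and without N2 replicate 3 at 20 C 4 were. The comparisons share groups: the N2 libraries at 25 C enter both the strain and the temperature contrast.

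Over the 12 mRNA libraries the genes most like each member, among 14800, were *nos-3* for *ppw-1* (Pearson's r = 0.993), *gld-1* for *wago-4* (0.992), *B0238.9* for *wago-1* (0.998), *F54D5.9* for *hrde-1* (0.996), *cam-1* for *ppw-2* (0.976) and *B0393.4* for *wago-10* (0.969). For the others they were *hum-1* for *nrde-3* (0.99), *M01H9.3* for *sago-1* (0.968) and *Y26E6A.2* for *sago-2* (0.855). *nos-3* and *gld-1* are among the 12 germ cell markers. The libraries share their groups, so these values only describe.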

How the data were processed

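Deposited small RNA tables hold RPM values with 0.01 added by the authors (read from the values: each of 40 columns has the same total without it). The values of low features were whole reads in 74.3% to 87.2% of cases, within 0.02 reads, so reads were estimated and no count test was run. Deposited mRNA tables hold raw counts per gene. The submitters' processing notes name cutadapt, STAR, FastQC and DESeq2, with no versions, but the genome build was not given in the sources used here. Coordinates and sequences are therefore left out. Of 55 labelled samples, 3 (GR3043 inputs) are not analysed here. Reads with no feature (2.6% to 10.76% of a library) and the GFP row stayed out of the tests.

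Small RNA was tested with limma 3.58.1 (R 4.3.3; trend, log2 of RPM + 1, library totals for IPs, TMM factors for inputs). mRNA was tested with edgeR 4.0.16 (quasi-likelihood, TMM, 4 groups in a single fit, adjusted p under 0.05), with DESeq2 1.42.0 as an alternative; SE for mRNA was taken from the F statistic. CPM printed use library totals. The scripts were tested on simulated data. Counts cover counting error only, since amplified reads without molecular identifiers are not independent. Gene IDs were paired with symbols through the supplied name tables. Strand was kept, per the labels' directional kit, but reads shared by near-identical Argonaute copies may be split.

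The text names all members, the single feature most like each, and lists of other Argonautes, 22G-RNA synthesis genes and cell type markers. Members and lists were chosen with earlier results of these data known. The germ cell ratio was added after the values were seen. The input is the lysate RNA of the IPs, per the labels, and both carry the same replicate numbers, so IP and input were also fitted with a replicate block; their deviations correlated at 0.013 to 0.206. mRNA samples share only a number.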

Additional observations from a re-analysis of the deposited data

Results flagged for a closer look

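A test of the difference between strains, in the same IP over input contrast, separated 21 values, given here on the log2 scale (limma, adjusted p under 0.05). For CSR-1a (JMC151) minus CSR-1b (JMC164) they were -2.80 for *wago-1*, -2.52 for *ppw-1*, -3.46 for *ppw-2*, -2.91 for *wago-4*, -2.07 for *hrde-1*, 3.69 for *sago-1* and 2.71 for *sago-2*. For WAGO-4 (JMC223) minus CSR-1b they were 1.34 for *wago-1*, 1.76 for *ppw-2* and 1.49 for *wago-4*. For WAGO-10 (JMC248) minus WAGO-4 they were -4.33 for *wago-1*, -3.22 for *ppw-1*, -5.21 for *ppw-2*, -4.74 for *wago-4*, 2.30 for *wago-10* and -3.13 for *hrde-1*. For JMC161 minus JMC151 they were 3.18 for *wago-1*, 4.04 for *ppw-2*, 2.96 for *wago-4*, 2.74 for *hrde-1* and -2.06 for *nrde-3*. JMC164, JMC223 and JMC151 each enter more than 1 of these comparisons. The *nrde-3* value rests on levels of at most 8.40 RPM and its call was lost in 8 of 13 alternatives. For the *sago-1* value, the JMC151 inputs together held 2 estimated reads, and only the IPs of that strain reached the read minimum.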

How the results depend on the processing

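Of 2025 alternative values for single WAGO genes, 1881 kept their side of the threshold, 55 gained and 89 lost a call, and 0 called values changed sign. Without a filter on low values, the counts of WAGO genes called were 2 for JMC151 minus JMC164 (7 with the filter), 3 for JMC161 minus JMC151 (5), 1 for WAGO-4 minus CSR-1b (3) and 0 for the JMC151 IP (3; 4 at an unadjusted p under 0.05). The WAGO-10 IP had 1 with a pseudocount of 0.1 RPM (2 as reported). For GR3039 minus GR3035 the count of 0 became 1, *wago-10*, with a pseudocount of 5 RPM and with the replicate block, where its adjusted p was 0.0292 and 0.0249 (range over 13 alternatives 0.0195 to 0.183). For the mutant over N2 at 25 C the count of 2 was 1 with RLE factors, 1 with no filter on low counts and 6 with those groups fitted alone. The interaction gave 2 with DESeq2 and 1 with RLE factors (0 as reported). For mRNA the replicate numbers only name samples, and deviations of same-numbered samples correlated at -0.407 to 0.457. For IPs the replicate block gained the 7 calls given in the report and lost 0. With the replicate block the mutant over N2 count at 25 C was 0 in place of 2, and no other count moved beyond 1.5 times except GR3039 minus GR3035, above. The cause was not tested for any of these.

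Leaving out a library in turn gave ranges of 0 to 2 for GR3039 minus GR3035, 2 to 7 for JMC151 minus JMC164, 4 to 5 for JMC161 minus JMC151, 0 to 2 for ALG-3 minus ALG-4 (2 without ALG-4 input replicate 1), 1 to 5 for WAGO-4 minus CSR-1b and 6 to 7 for WAGO-10 minus WAGO-4. For the JMC151 IP the range was 0 to 3, for the mutant over N2 0 to 3 at 20 C and 0 to 1 at 25 C, for the mutant between temperatures 1 to 3, and for the interaction 0 to 6. The call on *nrde-3* in JMC161 minus JMC151 was lost in 8 of 13 alternatives. Levels under a few RPM (*nrde-3*, *sago-1*) were limited by depth, most of all in the WAGO-4 libraries.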
